A study of Mus musculus with 22 samples.

Results

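The 10 genes described here encode proteins of apical polarity and of membrane traffic in epithelial cells: Crb3, Rab25, Mal, Mal2, Ap1m2, Myo5b, Prom2, Epn3, Map7 and Atp8b1. They were taken by gene name from the 49671 genes of the table, each name matched 1 identifier, and all 10 passed the filter on low values (at least 10 in at least 2 libraries), as did 19569 genes in all. The 22 RNA-seq libraries came from mouse tumour cell lines and fell into 11 groups of 2. All lines were derived from a primary tumour whose genotype includes Lgr5CreER, p53fl/fl and a Rosa26-YFP+/+ reporter, so Cre recombinase was made in cells that expressed Lgr5. The control line and 4 CRISPR/Cas9 knockout lines (Pitx1, Klf5, Nfatc1 and Creb3l1, each a transcription factor gene) were stained for EPCAM, an epithelial adhesion protein. Living single cells positive for mCherry and YFP were sorted as EPCAM+ or EPCAM- at day 8, and EPCAM+ control cells also at day 0. What separates day 0 from day 8 is not stated in the labels, nor is whether paired libraries are separate cultures or 1 clone, so each p-value measures the spread between these libraries only, which may be technical.

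An epithelial cell keeps its apical surface apart from its sides and base. The Crumbs, PAR and Scribble protein complexes set that border, and Crb3 is the Crumbs protein of most epithelia. Cargo then reaches each surface by its own route. The small GTPase Rab25, a relative of Rab11, and the actin motor Myo5b act at the apical recycling endosome, whereas the clathrin adaptor subunit encoded by Ap1m2 sorts proteins towards the basolateral side. Loss of such proteins is a known feature of epithelial cells that take on a mesenchymal form.

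The libraries held 6054919 to 9882692 reads in genes, recovered from the steps of the deposited values, and 20184 to 22616 genes above 0. Values below are the submitters' normalised counts, which add up to about the same total in every library. The sort marker Epcam stood at 3702 to 7320 in EPCAM+ libraries and at 90 to 735 in EPCAM- libraries. The epithelial marker Cdh1 (E-cadherin) stood at 1925 to 7473 against 130 to 523, and the keratins Krt8 and Krt18 were abundant in both fractions (12292 to 19245 against 7622 to 12802 for Krt8). Vim, a mesenchymal intermediate filament, stood at 2332 to 16658 against 30486 to 67534. The summed level of 5 fibroblast markers was 90 to 795 in EPCAM+ and 644 to 3855 in EPCAM- libraries. Most of it was Col1a1 (67 to 589 against 474 to 3666). Pdgfra stood at 19 to 282 against 43 to 398, and Lum was at 6 or less in every library. Endothelial markers summed to 66 to 203 against 65 to 431, and leukocyte markers to 147 to 360 against 135 to 280. Among the latter, Csf1r stood at 118 to 277 against 91 to 169 and Cd68 at 26 to 83 against 38 to 97. Cd3e was at 0 in every library. The part of these other markers in the results was not tested. Of the targeted genes, Pitx1 stood at 1473 and 1627 in Pitx1 knockout EPCAM+ cells against 5432 and 4358 in control, and Nfatc1 at 194 and 182 in its knockout against 817 and 488. Klf5 stood at 2247 and 1961 in its knockout against 2585 and 1733, so its mRNA does not check that knockout. Creb3l1 was at 0 in both control EPCAM+ libraries, and in EPCAM- cells it stood at 137 and 26 in the control against 6 and 0 in its knockout. The EPCAM- cells of the Pitx1, Klf5 and Nfatc1 knockouts held 8 and 3, 8 and 5, and 0 and 0. The low level is therefore not particular to the Creb3l1 line, and its mRNA does not check that knockout either.

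All 10 genes were lower in EPCAM- than in EPCAM+ cells in each of the 5 lines, and the 2 fractions of a line overlapped for none of them. Of all tested genes, 14.9% had both EPCAM- below both EPCAM+ libraries in the control line, 13.5% in the Pitx1, 12.7% in the Klf5, 9.92% in the Nfatc1 and 12.1% in the Creb3l1 line. Averaged over the lines, all 10 fell (limma, Benjamini-Hochberg adjusted p 7.76e-09 to 8.61e-06), against 3.49% of all tested genes. Their median log2 fold change was -4.58, beside 0.06 for all tested genes. For 9 of the 10, Mal being the exception, every one of the 10 EPCAM- libraries was below every one of the 12 EPCAM+ libraries, a pattern shared by 0.669% of tested genes. In sorted bulk RNA, fewer cells with a transcript and less transcript per cell cannot be told apart. Fold changes are on the log2(value + 1) scale, which understates the change of genes near 0, and where an EPCAM- group held 0 to 3 reads the fitted value depends on the pseudocount.

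**Figure D1:**
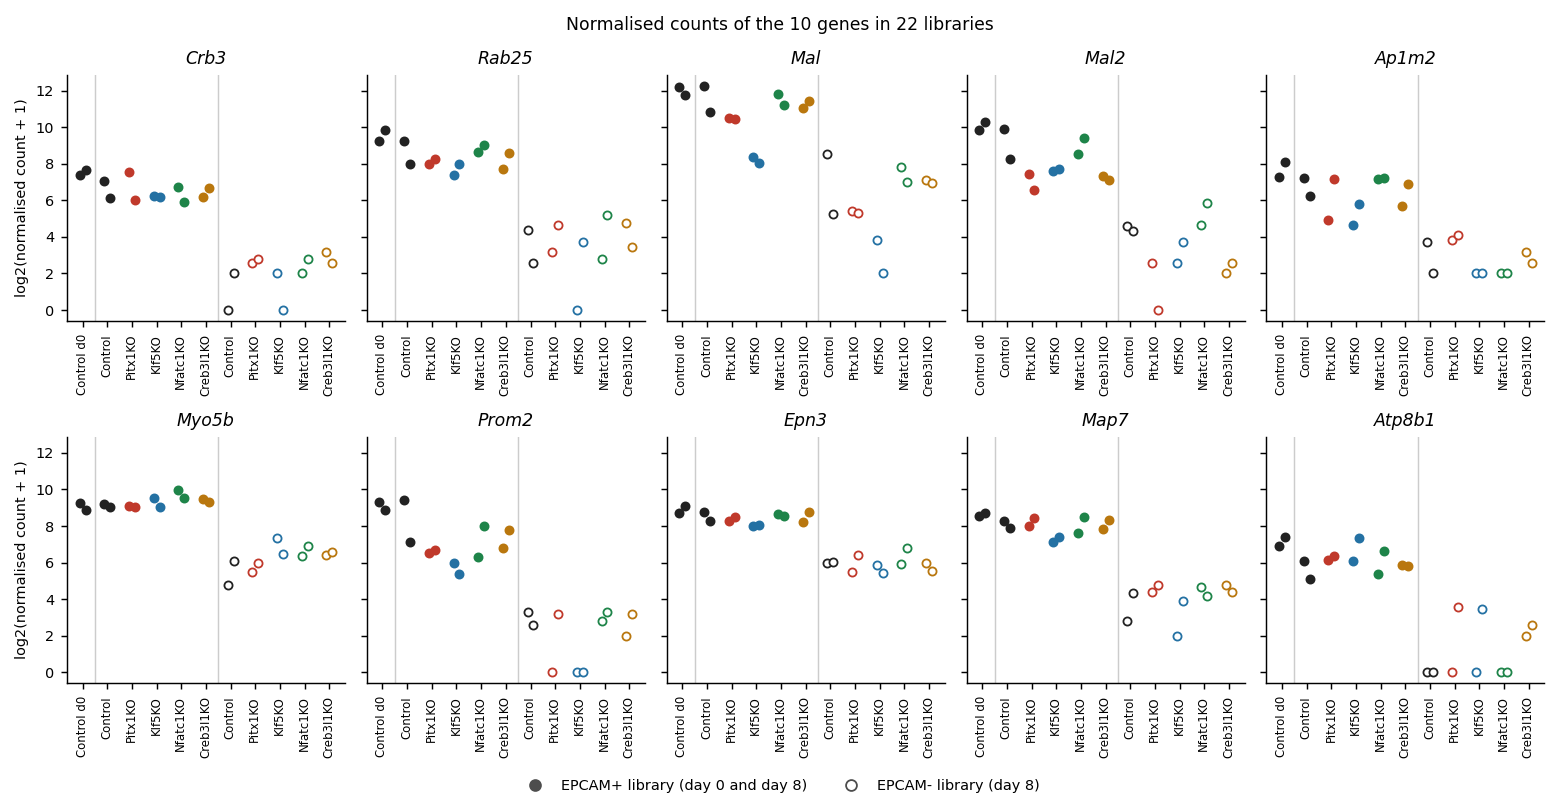
Normalised counts of each gene in every library on the log2(value + 1) scale, with both libraries of a group side by side and groups along the x axis. EPCAM+ libraries (filled) stand above EPCAM- libraries (open) in every panel except that of Mal, where the Klf5 knockout EPCAM+ libraries (333 and 263) reach the level of control EPCAM- replicate 1 (374).

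Among the genes of apical polarity and recycling, Crb3 was nearly absent from EPCAM- cells. It lies on chromosome 17 (GRCm38, 57059105 to 57065918, plus strand) and stood at 169 and 202 in control EPCAM+ cells at day 0, at 134 and 68 at day 8 and at 0 and 3 in day 8 EPCAM- cells. In the EPCAM+ cells of the Pitx1, Klf5, Nfatc1 and Creb3l1 knockouts it stood at 185 and 64, 75 and 72, 106 and 60, and 72 and 102. The EPCAM- cells of the same lines held 5 and 6, 3 and 0, 3 and 6, and 8 and 5. Its exons share 14 bases with Dennd1c on the other strand, which was at 16 or less in every library. Every EPCAM- library thus held 8 or less and every EPCAM+ library 60 or more, and the EPCAM- libraries held at most 3 Crb3 reads each. The mean log2 fold change was -4.48 (standard error 0.33, limma adjusted p 1.71e-07). By line it fell in the control, Pitx1, Klf5 and Nfatc1 lines, while the Creb3l1 line had a log2 fold change of -3.56 with an adjusted p of 0.0532 (0.0284 with the replicate number as a block).

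Rab25, on chromosome 3 (88542029 to 88548300, minus strand), stood at 606 and 916 in control EPCAM+ cells at day 0, at 598 and 250 at day 8, and at 20 and 5 in day 8 EPCAM- cells, 33.9-fold below the day 8 EPCAM+ mean. The EPCAM+ cells of the Pitx1, Klf5, Nfatc1 and Creb3l1 knockouts held 253 and 312, 167 and 251, 407 and 532, and 210 and 391. Their EPCAM- cells held 8 and 24, 0 and 12, 6 and 36, and 26 and 10. The EPCAM- libraries of a line differed several-fold from each other, and Rab25 had one of the largest standard errors of the 10 (1.03 within a line). Averaged over lines it fell by 4.82 on the log2 scale (standard error 0.46, limma adjusted p 8.61e-06). Within single lines it fell in the control and Klf5 lines and not at the threshold in the Pitx1, Nfatc1 and Creb3l1 lines (adjusted p 0.143, 0.0595 and 0.213), where the fold changes were -4.23, -4.86 and -4.06.

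Myo5b (chromosome 18, 74440936 to 74771493, plus strand) encodes the myosin motor that moves Rab11-family vesicles along actin, and in humans its mutation causes microvillus inclusion disease. Its EPCAM+ level was the steadiest of the 10, with 464 to 993 over the 12 libraries, a 2.14-fold range. In control cells it stood at 620 and 464 at day 0, at 596 and 518 at day 8 and at 26 and 67 in EPCAM- cells. The EPCAM- cells of the Pitx1, Klf5, Nfatc1 and Creb3l1 knockouts held 44 and 63, 159 and 88, 80 and 121, and 83 and 94, beside 542 and 535, 728 and 532, 993 and 734, and 715 and 642 in EPCAM+ cells. It therefore kept a measurable level in every EPCAM- library, 8.35 to 19.6% of the EPCAM+ level of the same line. The mean log2 fold change was -3.09 (standard error 0.17, limma adjusted p 7.76e-09), and it fell in each of the 5 lines.

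Mal and Mal2 encode small membrane proteins with 4 spans that reside in lipid rafts. Mal is needed for apical transport in canine MDCK cells and Mal2 for transcytosis in human HepG2 cells. Mal was the most abundant of the 10, with a mean of 761 per kilobase of exon in day 8 EPCAM+ cells beside 201 for Rab25, 111 for Mal2 and 10.8 for Atp8b1. Mal (chromosome 2, 127633226 to 127656695, minus strand) stood at 4667 and 3424 in control EPCAM+ cells at day 0, at 4947 and 1860 at day 8 and at 374 and 37 in EPCAM- cells. In EPCAM+ cells of the Pitx1, Klf5, Nfatc1 and Creb3l1 knockouts it stood at 1446 and 1418, 333 and 263, 3585 and 2422, and 2138 and 2731. The EPCAM- cells held 42 and 39, 13 and 3, 228 and 126, and 139 and 124. Its level therefore spread 18.8-fold among EPCAM+ libraries, the widest range of the 10, and the Klf5 knockout was lowest in both fractions. Within every line the fall remained, with a mean log2 fold change of -4.68 (standard error 0.35, limma adjusted p 8.32e-07) and 2.68 to 6.04% of the EPCAM+ level left.

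Mal2 lies on chromosome 15 (54571192 to 54602847, plus strand). Control EPCAM+ cells held 917 and 1261 at day 0 and 956 and 306 at day 8, and control EPCAM- cells held 23 and 19. In EPCAM+ cells of the Pitx1, Klf5, Nfatc1 and Creb3l1 knockouts it stood at 173 and 94, 196 and 211, 374 and 671, and 158 and 136. The EPCAM- cells held 5 and 0, 5 and 12, 24 and 58, and 3 and 5. Mal2 thus spread 13.4-fold among EPCAM+ libraries, with the control and Nfatc1 lines high and the Pitx1 and Creb3l1 lines low. It fell in each of the 5 lines, by 4.70 on the log2 scale on average (standard error 0.32, limma adjusted p 1.07e-07).

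The 2 sorting and endocytic adaptors differed in how much was left. Ap1m2 (chromosome 9, 21294275 to 21312337, minus strand) encodes the epithelial medium chain of the adaptor complex AP-1. It stood at 157 and 269 in control EPCAM+ cells at day 0, at 149 and 74 at day 8 and at 12 and 3 in EPCAM- cells. The EPCAM+ cells of the Pitx1, Klf5, Nfatc1 and Creb3l1 knockouts held 30 and 143, 24 and 54, 144 and 149, and 50 and 116, and their EPCAM- cells 13 and 16, 3 and 3, 3 and 3, and 8 and 5. The Pitx1 line came closest to overlap, with 30 in its lower EPCAM+ library and 16 in its higher EPCAM- library. Ap1m2 fell by 3.56 on the log2 scale on average (standard error 0.32, limma adjusted p 1.34e-06). By line it fell in the control and Nfatc1 lines. The adjusted p was 0.473 in the Pitx1 line, 0.0804 in the Klf5 line (0.0479 with the replicate block) and 0.0564 in the Creb3l1 line (0.029 with the block).

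Epn3 (chromosome 11, 94489599 to 94499974, minus strand) encodes an epsin, an adaptor that bends membrane at clathrin-coated pits. Control EPCAM+ cells held 424 and 556 at day 0 and 439 and 304 at day 8, and control EPCAM- cells held 63 and 65. Over the knockouts the EPCAM+ libraries held 256 to 438 and the EPCAM- libraries 42 to 110. Epn3 kept the largest share of its level in EPCAM- cells, 14.6 to 21.7% by line, and had the smallest fold change of the 10, -2.46 (standard error 0.16, limma adjusted p 4.04e-08). The 95% interval of that change, -2.80 to -2.13, lies apart from that of Prom2, -5.81 to -4.13. It fell in each of the 5 lines.

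Map7, Prom2 and Atp8b1 act on microtubules and at the plasma membrane. Map7 (chromosome 10, 20148471 to 20281590, plus strand), which recruits the motor kinesin-1 to microtubules, stood at 368 and 415 in control EPCAM+ cells at day 0, at 314 and 239 at day 8 and at 6 and 19 in EPCAM- cells. The knockouts held 137 to 361 in EPCAM+ and 3 to 26 in EPCAM- libraries, with the Klf5 knockout lowest in EPCAM+ cells (137 and 171). Its exons share 332 bases with the antisense gene Gm48249 (0 to 100 in every library), and since no strand setting is given for the counting, reads from that stretch cannot be told apart. Map7 fell in each of the 5 lines and by 3.93 on average (log2, standard error 0.25, limma adjusted p 3.74e-08).

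Prom2 encodes prominin 2, a cholesterol-binding protein of membrane protrusions. It lies on chromosome 2 (127526473 to 127541467, minus strand), 91.8 kb from Mal. Control EPCAM+ cells held 645 and 464 at day 0 and 692 and 139 at day 8, and control EPCAM- cells held 9 and 5. In EPCAM+ cells of the Pitx1, Klf5, Nfatc1 and Creb3l1 knockouts it stood at 90 and 101, 63 and 41, 79 and 258, and 111 and 223. The EPCAM- cells held 0 and 8, 0 and 0, 6 and 9, and 3 and 8. Pooled over all lines, Prom2 had the lowest share of the 10 left, 2.67% of the EPCAM+ level. By line its share was the lowest of the 10 in the Klf5 line only. Its median share over lines, 3.29%, was close to the 3.33% of Mal2. Prom2 was at least 7.26-fold lower in the Klf5 line, where both EPCAM- libraries were at 0 and 3 reads per library stand in for 0. The fitted mean change was -4.97 (standard error 0.40, limma adjusted p 4.68e-07). It fell in 4 lines, and in the Nfatc1 line the adjusted p was 0.0567 (0.0352 with the replicate block).

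Atp8b1 (chromosome 18, 64528967 to 64661267, minus strand) encodes a phospholipid flippase of the apical membrane, whose mutation in humans causes an inherited cholestasis. It was the least abundant per kilobase. Control EPCAM+ cells held 121 and 168 at day 0 and 68 and 33 at day 8, and both control EPCAM- libraries were at 0. In EPCAM+ cells of the Pitx1, Klf5, Nfatc1 and Creb3l1 knockouts it stood at 69 and 80, 66 and 160, 41 and 100, and 57 and 55, and in EPCAM- cells at 0 and 11, 0 and 10, 0 and 0, and 3 and 5. Of the 10 EPCAM- libraries, 6 were thus at 0. Against EPCAM+ cells of the same line Atp8b1 was at least 6.55-fold lower in the control line and at least 8.88-fold lower in the Nfatc1 line, with 3 reads per library in place of 0. The mean log2 fold change was -4.91 (standard error 0.47, limma adjusted p 2.54e-06). It fell in the control and Nfatc1 lines, and the Pitx1, Klf5 and Creb3l1 lines had adjusted p of 0.0981, 0.0603 and 0.367 (0.0283, 0.0135 and 0.131 with the block).

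Taking the lines singly, all 10 genes fell in the control line (0.562% of tested genes fell there), 7 in the Pitx1 line (0.276%), 8 in the Klf5 line (0.286%), 8 in the Nfatc1 line (0.368%) and 6 in the Creb3l1 line (0.276%). With the replicate number, which the labels give as a batch, as a block common to all lines, 10, 8, 10, 9 and 8 fell (0.848, 0.588, 0.501, 0.71 and 0.516% of tested genes). With the pair of line and replicate as the block, all 10 fell in each line (3.07, 2.62, 1.59, 2.51 and 2.11% of tested genes). Epn3, Map7, Mal2, Myo5b and Mal fell in each of the 5 lines in the unblocked fit, as did 0.118% of tested genes (23 genes). With voom weights on recovered reads, Epn3, Map7 and Myo5b fell in 5 lines and Mal in 4. Mal2, Rab25 and Crb3 then fell in 2 lines, and Ap1m2, Prom2 and Atp8b1 in 0. In that fit 88 of 19569 tested genes fell in the control, 48 in the Pitx1, 39 in the Klf5, 68 in the Nfatc1 and 53 in the Creb3l1 line. These counts rest on groups of 2. With any 1 day 8 library of a line left out, fewer of the 10 passed in that line. In most of these fits fewer of all tested genes fell as well, so the loss of calls is not particular to the 10. The fold changes of the 10 all stayed negative, the one nearest 0 being -1.01 for Ap1m2 in the Pitx1 line. Averaged over lines, all 10 fell whichever of the 20 day 8 libraries was left out.

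**Figure D2:**
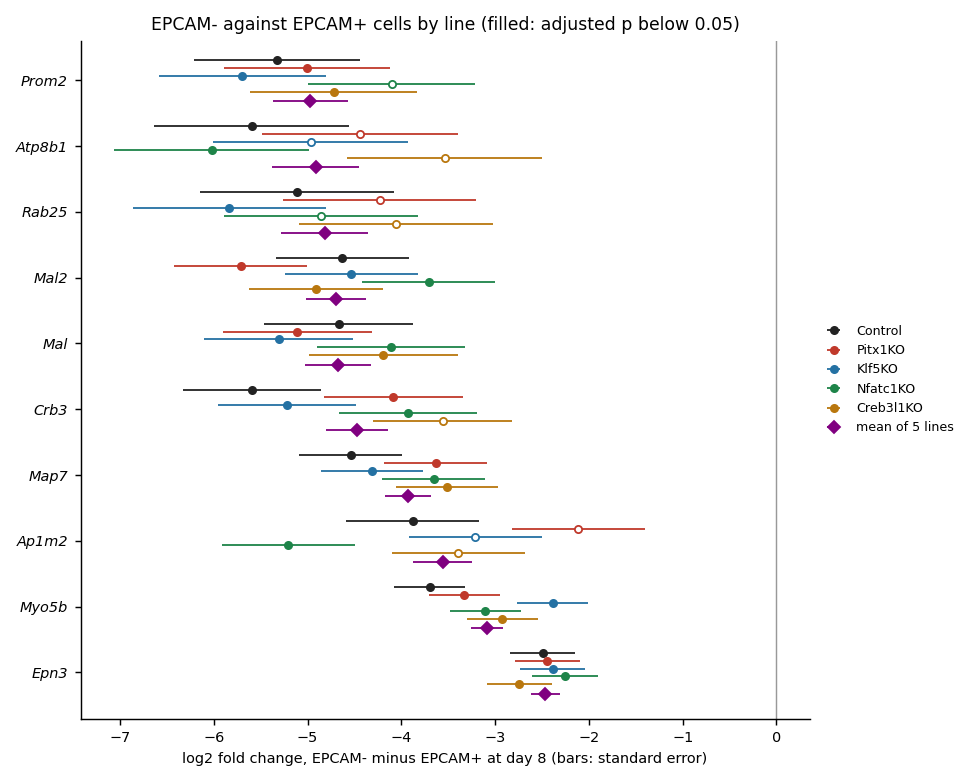
Log2 fold change of EPCAM- against EPCAM+ cells at day 8 for each gene (y axis) in each of the 5 lines (circles, filled where the limma adjusted p is below 0.05) and averaged over the lines (diamonds), with standard errors as bars. All values lie below 0. The means run from -2.46 for Epn3 to -4.97 for Prom2, and the single lines from -2.11 (Ap1m2, Pitx1 line) to -6.03 (Atp8b1, Nfatc1 line).

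The share of the EPCAM+ level that remained in EPCAM- cells of the same line ordered the genes. Over all lines 2.67% was left of Prom2, 3.98% of Atp8b1, 4.16% of Crb3, 4.36% of Rab25, 4.70% of Mal2 and 5.32% of Mal. Map7 followed with 6.82% and Ap1m2 with 7.40%, close to the 6.97% of Epcam, the gene behind the sort. Myo5b kept 12.6% and Epn3 18.3%. Crb3, Rab25, Prom2 and Atp8b1 were below the share of Epcam in all 5 lines, and Myo5b and Epn3 above it in all 5. The shares of neighbours in this order overlapped between lines, those of Ap1m2 most widely (2.05 to 16.8%). With 1 to 3 reads behind several of the EPCAM- groups, the lowest shares carry wide counting error.

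**Figure D3:**
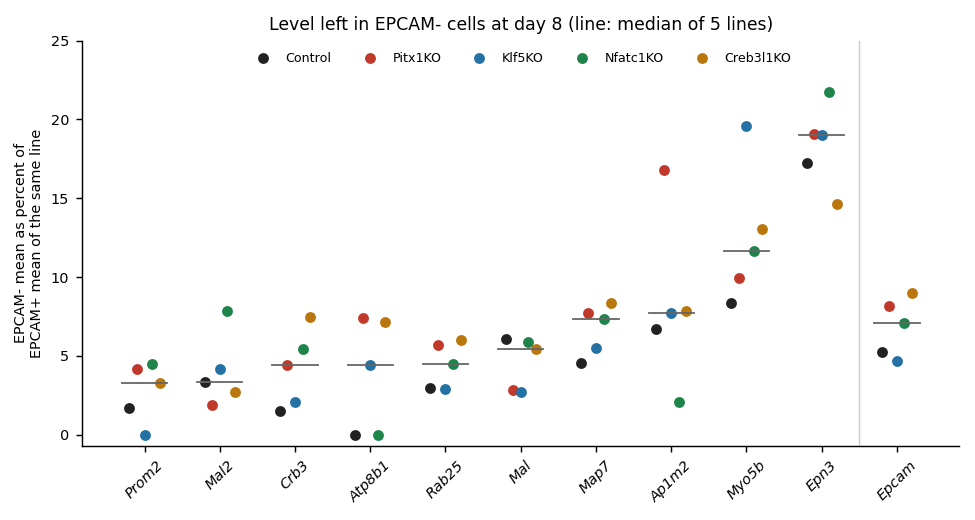
Mean level in day 8 EPCAM- cells as a percentage of the mean in EPCAM+ cells of the same line (y axis) for each of the 10 genes and Epcam (x axis), with 1 point for each line and a bar at the median of the 5 lines. Epn3 (14.6 to 21.7%) and Myo5b (8.35 to 19.6%) stand above Epcam (4.68 to 8.98%) in every line, and Prom2 stands at 0 to 4.45%.

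Day 8 EPCAM- control cells were also compared with day 0 EPCAM+ control cells, and all 10 genes fell (1.32% of tested genes fell). Rab25 was 60.9-fold lower, Mal2 51.9-fold and Prom2 79.2-fold, and Atp8b1 was at least 18.7-fold lower. Myo5b and Epn3 again changed least, 11.7-fold and 7.66-fold. Between EPCAM+ control cells of day 8 and day 0, limma called none of the 10 (0% of all tested genes). None of the 10 had an unadjusted p under 0.05, and with the replicate block none of the 10 and 0.0102% of tested genes (2 genes) were called. The fitted mean was lower at day 8 in 9 of the 10, with log2 fold changes from -1.57 for Atp8b1 to 0.05 for Myo5b. The 95% interval was -3.77 to 0.64 for Atp8b1 and -0.75 to 0.85 for Myo5b. In 9 of the 10, Myo5b being the exception, the day 0 group had the highest mean of all 11 groups. The share of all tested genes with their highest mean at day 0 was not counted. The 10 genes also vary together (Pearson correlation of each with their mean profile 0.899 to 0.985), so they are not separate observations. Neighbouring groups in the order of means often overlapped, in between 5 of 10 neighbouring pairs for Mal2 and 9 of 10 for Crb3.

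The day 8 EPCAM+ control group had an uneven pair of libraries. All 10 genes were higher in replicate 1 than in replicate 2, with a median log2 ratio of 1.01, while 50.2% of all tested genes were higher in replicate 1. Prom2 differed most (692 and 139), followed by Mal2 (956 and 306) and Mal (4947 and 1860). In the other EPCAM+ groups 3 or 4 of the 10 were higher in replicate 1. The comparisons of knockouts with control below rest on this pair.

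The knockouts were compared with the control line within each fraction, that is, at the same EPCAM state. Loss of the factor cannot be told apart here from any other difference between a knockout line and the control line. Creb3l1 was at 0 in both control EPCAM+ libraries and low in EPCAM- cells of all 4 knockouts. Neither its mRNA nor that of Klf5 checks the knockout of that gene. All 4 comparisons of a fraction share the same 2 control libraries. In EPCAM+ cells limma called none of the 40 values, while 5 of them had an unadjusted p under 0.05. The same held for 2022 of the 19569 tested genes for Pitx1, 1369 for Klf5, 1467 for Nfatc1 and 1172 for Creb3l1. The share of all tested genes that fell was 0.276% for Pitx1, 0.0511% for Klf5, 0% for Nfatc1 and 0.184% for Creb3l1. The 5 values under 0.05 were Mal, Prom2 and Ap1m2 in the Klf5 knockout and Mal2 in the Pitx1 and Creb3l1 knockouts. Mal in the Klf5 knockout (333 and 263 against 4947 and 1860) had a log2 fold change of -3.35, a standard error of 0.79 and an adjusted p of 0.276. Mal2 in the Pitx1 knockout (173 and 94 against 956 and 306) had a log2 fold change of -2.08 with an adjusted p of 0.271. In the Creb3l1 knockout Mal2 (158 and 136) had -1.88 with 0.679. Prom2 in the Klf5 knockout (63 and 41 against 692 and 139) had -2.59 with 0.601. The control replicates themselves differed 2.66-fold for Mal, 3.12-fold for Mal2 and 4.98-fold for Prom2.

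In EPCAM- cells 1 of the 40 values passed, while 10 had an unadjusted p under 0.05. The latter held for 2052 of the 19569 tested genes for Pitx1, 1118 for Klf5, 734 for Nfatc1 and 1180 for Creb3l1. Of all tested genes 0.577% fell in the Pitx1, 0.138% in the Klf5, 0% in the Nfatc1 and 0.24% in the Creb3l1 knockout. Mal2 fell in the Pitx1 knockout, from 23 and 19 in the control to 5 and 0 (log2 fold change -3.16, standard error 0.71, limma adjusted p 0.0472). Only 2 reads lay behind the knockout values, and the call was absent with a pseudocount of 10 (0.246), with voom weights (0.555), with only the groups compared in the fit (0.484) and without either control library (0.289 and 0.119) or Pitx1 knockout replicate 2 (0.42). Mal in the Klf5 knockout (13 and 3 against 374 and 37) had a log2 fold change of -4.00 and an adjusted p of 0.0847, and it fell in the fit with the replicate block (0.0371; 0.25% of tested genes fell in that fit). Without control EPCAM- replicate 2 its adjusted p was 0.00364 and without replicate 1 it was 0.717. Myo5b in the Klf5 knockout (159 and 88 against 26 and 67) had 1.48 with an adjusted p of 0.225. Myo5b was the one gene whose fitted level was above the control in EPCAM- cells of all 4 knockouts and had an unadjusted p under 0.05 in 3 of them. It is named because of its values, and none of the 4 was called. All 4 rest on the same 2 control libraries (26 and 67).

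Whether the fraction difference itself changed with a knockout was tested as an interaction, and limma called 0 of 40 values (0% of tested genes in each knockout). The same held with the replicate block and with voom. With the pair of line and replicate as the block, 17 of all tested genes were called for Pitx1, 3 for Klf5 and 0 for Nfatc1 and Creb3l1. In the unblocked limma fit 1 of 40 values had an unadjusted p under 0.05, Myo5b in the Klf5 knockout (p 0.0254). So did 365 of 19569 tested genes for Pitx1, 268 for Klf5, 374 for Nfatc1 and 222 for Creb3l1. Interaction log2 values ran from -1.33 for Ap1m2 in the Nfatc1 knockout to 2.06 for Atp8b1 in the Creb3l1 knockout. Their median standard error was 1.02, so that the 95% interval of Mal2 in the Pitx1 knockout, for example, ran from -3.22 to 1.05.

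Relatives of the 10 genes were listed by family, not by breadth of use. Those tested had smaller fold changes between the fractions than the member of their family. The relatives and pathway lists here were chosen with earlier results of these data known. Of 38 family members and partner subunits listed, 28 were tested between the fractions. Averaged over lines 2 rose, 4 fell and 22 did not pass, against 2.74% and 3.49% of all tested genes, and their median log2 fold change was -0.00 beside 0.06. Ap1m1, the medium chain of AP-1 in most cells, rose from 674 to 1238 in EPCAM+ libraries to 952 to 1417 in EPCAM- libraries (0.40, 95% interval 0.22 to 0.57), whereas Ap1m2 fell (-4.23 to -2.89). Per kilobase, Ap1m1 stood at 272 in day 8 EPCAM+ cells and Ap1m2 at 29.7. Rab11a (1132 to 2390 against 1063 to 2451) and Rab11b (1059 to 1432 against 993 to 1380), the closest relatives of Rab25, had intervals of -0.33 to 0.20 and -0.29 to 0.03. Myo5a, the motor of the same class as Myo5b, stood at 4935 to 6476 against 4346 to 6597, with an interval of -0.11 to 0.14.

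Of the other epsins, Epn2 fell (1386 to 2545 against 780 to 2109, log2 -0.39, limma adjusted p 0.00422), and Epn1 did not pass (interval -0.19 to 0.15). Map7d1, a relative of Map7, had an interval of -0.10 to 0.34, and Crb2, at 6 to 39 in day 8 libraries, one of -0.24 to 0.90. The flippases were mixed. Atp8b2 rose by 0.31 (1282 to 1825 against 1509 to 2307, adjusted p 0.0238), which was 0.0513 with the libraries scaled by the median ratio. The call was also lost without any 1 of 6 libraries, the change being 0.26 to 0.36 over all libraries left out. Atp9a fell by 0.93 and Atp8a1 by 0.60, and Atp8b4, low at 9 to 153, rose by 1.11 in the blocked fit alone (adjusted p 0.0217 against 0.23). Tmem30a, the partner subunit of Atp8b1, had an interval of -0.20 to 0.13. Of the tetraspan relatives of Mal, Cmtm4 fell by 0.59 and Plp2 did not pass (interval -0.38 to 0.04). The intervals of these relatives all lie above those of the member of the same family.

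**Figure D4:**
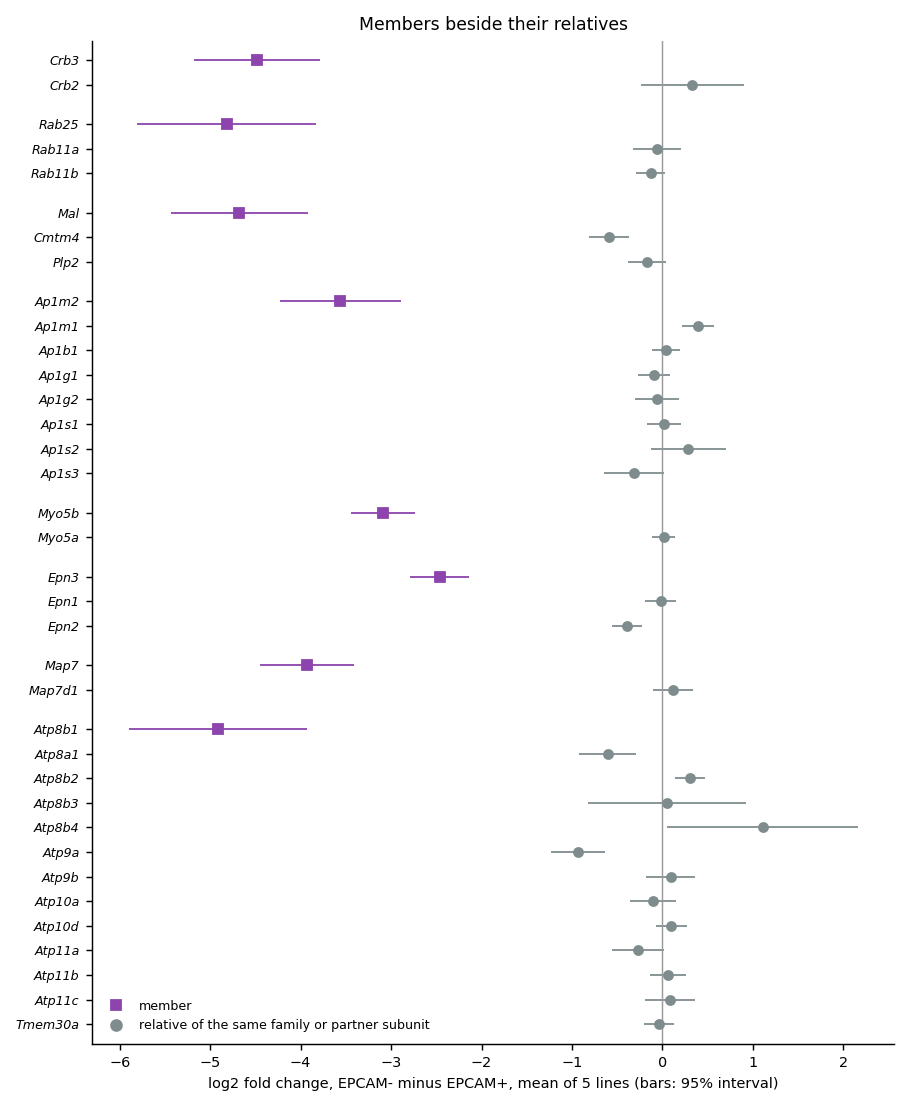
Log2 fold change of EPCAM- against EPCAM+ cells averaged over 5 lines (x axis, bars are 95% intervals) for 8 of the 10 genes (squares) and all 28 tested relatives or partner subunits (circles). The squares lie between -4.91 and -2.46, and the circles between -0.93 (Atp9a) and 1.11 (Atp8b4).

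Of the 22 listed genes of the Crumbs, PAR and Scribble complexes, 20 were tested between fractions, 5 fell and none rose, with a median of -0.05 (over all tested genes 3.49% fell, 2.74% rose and the median was 0.06). Pard6b (1964 to 2892 against 502 to 1554) fell by 1.41 on the log2 scale, Patj, the scaffold of the Crumbs complex (1323 to 1977 against 541 to 956), by 1.20, Llgl2 by 1.11 and the atypical kinase gene Prkcz by 0.96. Of 26 listed genes of apical recycling and membrane fusion, 23 were tested, 1 rose and 6 fell, with a median of -0.07, beside the same 2.74%, 3.49% and 0.06. With the replicate block 8 fell, Rab10 (limma adjusted p 0.144, blocked 0.0056) and Vamp8 (0.248, blocked 0.0071) being the added ones. The 1 gene that rose was Rab8b, by 0.49; these 3 are named because of their values. The apical syntaxin gene Stx3 fell by 0.59, Rab27b by 0.58 and Rab11fip5, a Rab11 effector, by 0.58. Rab11fip4 (57 to 195 against 18 to 127) fell by 1.43, with a limma adjusted p of 0.0417 that became 0.0528 to 0.0992 when any 1 of 14 libraries was left out. Of 17 listed genes of the apical membrane scaffold, 13 were tested, 4 fell and none rose, with a median of -0.27, against 3.49% fallen and a median of 0.06 over all tested genes. They were Eps8l1 (21 to 182 against 7 to 36, log2 -2.36), Eps8l2 (-1.50), Cgn (cingulin, -0.72) and Slc9a3r1 (-0.32). The 95% intervals of Eps8l1 (-2.89 to -1.83) and Rab11fip4 (-2.26 to -0.59) overlapped that of Epn3 (-2.80 to -2.13), the least changed of the 10.

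The genes most like the 10 in their level over the 22 libraries were the tight junction gene Ocln, Serpinb5, the integrin subunit gene Itgb6, the plakophilin gene Pkp3 and Patj. Their Pearson correlation with the mean of the 10 standardised profiles was 0.983, 0.978, 0.977, 0.970 and 0.970. Ocln stood at 404 to 922 in day 8 EPCAM+ and at 25 to 93 in EPCAM- libraries. Taken singly, Map7 was most like Epcam itself (0.974), Epn3 most like Patj (0.977), Rab25 most like Pkp3 (0.971) and Crb3 most like Camsap3 (0.961), whose protein anchors microtubule minus ends. Mal, Mal2 and Atp8b1 had the weakest nearest matches (0.944, 0.934 and 0.937). These are descriptions over 22 libraries that share the split by EPCAM, which alone makes profiles alike.

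Since the 10 genes fell together, their promoters were searched for letters of 3 motifs. Proximal promoters (250 bases before to 50 after the start, RefSeq on GRCm38.p6) were at hand for Crb3, Rab25, Mal, Ap1m2, Prom2 and Map7. The E2 box CAGGTG, on either strand (CACCTG on the other), is the letters that repressors of the ZEB and SNAIL families are known to bind. It was found in Crb3, Rab25, Ap1m2 and Map7, 4 of 6 genes, and in 20.2% of 32851 promoters. Crb3 and Ap1m2 each had 4 and Rab25 and Map7 each 2, whereas Mal and Prom2 had none. The grainyhead motif AACCNGTT, on either strand, was found in Rab25, and in 2.09% of all promoters. The GC box GGGCGGG was found in 4 of the 7 entries and in 25.6% of all. A match is a run of letters and not a measured binding site. The promoters with E2 boxes are shown 5′ to 3′ on the strand of the gene, with E2 boxes and the grainyhead match in capitals, followed by Mal as a promoter without either. They lie at chr17:57061951-57062250 (plus), chr3:88548230-88548529 (minus), chr9:21312284-21312583 (minus), chr10:20148670-20148969 (plus) and chr2:127656646-127656945 (minus).
Crb3: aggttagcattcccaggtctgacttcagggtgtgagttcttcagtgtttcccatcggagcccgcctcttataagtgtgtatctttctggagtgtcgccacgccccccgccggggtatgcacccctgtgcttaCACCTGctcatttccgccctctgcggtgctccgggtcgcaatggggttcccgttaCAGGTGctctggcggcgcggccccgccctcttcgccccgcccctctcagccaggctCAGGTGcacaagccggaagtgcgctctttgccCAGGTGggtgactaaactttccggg
Rab25: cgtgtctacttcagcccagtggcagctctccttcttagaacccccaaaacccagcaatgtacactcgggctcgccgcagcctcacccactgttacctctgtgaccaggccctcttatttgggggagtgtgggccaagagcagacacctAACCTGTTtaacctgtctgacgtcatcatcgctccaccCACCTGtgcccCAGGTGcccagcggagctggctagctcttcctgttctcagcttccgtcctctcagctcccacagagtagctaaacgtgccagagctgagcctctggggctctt
Ap1m2: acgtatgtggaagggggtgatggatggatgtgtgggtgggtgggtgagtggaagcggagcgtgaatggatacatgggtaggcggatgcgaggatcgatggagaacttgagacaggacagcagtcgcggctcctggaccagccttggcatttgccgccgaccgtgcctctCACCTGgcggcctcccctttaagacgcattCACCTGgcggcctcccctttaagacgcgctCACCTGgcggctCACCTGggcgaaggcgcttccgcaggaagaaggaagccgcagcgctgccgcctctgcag
Map7: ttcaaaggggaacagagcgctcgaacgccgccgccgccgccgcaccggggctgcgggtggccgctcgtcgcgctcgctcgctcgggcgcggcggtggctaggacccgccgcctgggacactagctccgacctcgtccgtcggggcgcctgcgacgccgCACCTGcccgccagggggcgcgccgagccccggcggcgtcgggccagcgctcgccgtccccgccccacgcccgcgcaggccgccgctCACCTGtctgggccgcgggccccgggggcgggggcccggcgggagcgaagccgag
Mal: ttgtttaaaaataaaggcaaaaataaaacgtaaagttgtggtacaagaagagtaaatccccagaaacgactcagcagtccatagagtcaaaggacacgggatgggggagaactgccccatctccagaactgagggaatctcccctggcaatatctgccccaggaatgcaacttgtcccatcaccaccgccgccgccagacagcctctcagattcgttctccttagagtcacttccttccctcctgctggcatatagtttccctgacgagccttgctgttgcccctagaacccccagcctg

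In Ap1m2 the E2 boxes sit within repeated letters, and in Rab25 the grainyhead match lies upstream of both E2 boxes. Prom2 and Mal, without an E2 box, had log2 fold changes of -4.97 and -4.68, Rab25 and Map7, with 2 each, -4.82 and -3.93, and Crb3 and Ap1m2, with 4 each, -4.48 and -3.56. Zeb1, which encodes a factor known to bind these letters, stood at 25 to 121 in EPCAM+ and at 78 to 1183 in EPCAM- libraries, and Zeb2 at 217 to 2194 against 2374 to 4258. Their part in the results was not tested.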

How the data were processed

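RNA was extracted with the RNeasy micro kit, made into Ovation Solo libraries and sequenced in paired-end mode, per the labels' protocols. Per the submitters' processing notes the tools were STAR, HTSeq, Trimmomatic, Picard and FastQC, with no version, on GRCm38. The values deposited by the authors, called normalised counts per the labels, were read as a score: each library totals 20007331 to 20014236, and 99.8 to 99.9% of its values are whole multiples of a step (2.02 to 3.30 units, taken as 1 read) rounded up. They were not scaled again. A floor of 3 reads per library stands in for 0 in a lower bound and covers counting error only.

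Genes at 10 or more in at least 2 libraries (19569) were fitted on log2(value + 1) with limma 3.58.1 in R 4.3.3. The fit had 1 mean for each of the 11 groups, a trended robust prior and 11 residual degrees of freedom, with 20 contrasts, each adjusted by Benjamini-Hochberg over all 19569 genes. A gene rose or fell at an adjusted p below 0.05. The script was tested on simulated data. Values were prepared in pandas 2.3.3 and numpy 2.4.6 (Python 3.11.15), intervals in scipy 1.17.1 and plots in matplotlib 3.10.9. Positions and exon lengths are those of GENCODE M21, which held 99.5% of the identifiers. Promoters are RefSeq's.

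The replicate number is a batch in the labels, so the numbers pair the samples. Replicate differences correlated above 0.1 in 36 of 55 pairs of groups (median 0.146), and between the fractions of a line at 0.171 to 0.381. Values with the replicate number as a common block are given beside results whose call they change. The block of line and replicate changed further calls, and for these only the counts by line are given. Examples are Rab25 in the Pitx1, Nfatc1 and Creb3l1 lines (limma adjusted p 0.0177, 0.00835 and 0.0283 with that block). Replicates of a group differed by more than counting noise in all 11 groups.

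The 10 genes, the family and pathway lists and the tests were chosen with earlier results of these data known. The text names the 10 genes, Epcam, the targeted genes, tested relatives, up to 4 called genes by size from each other list (Rab8b, Rab10 and Vamp8 were added after their values were seen), the 5 genes most correlated with the 10, and the nearest gene to a member. Single markers, Zeb1 and Zeb2 come from the marker lists. One further allele of the tumour genotype is not reported here.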

Additional observations from a re-analysis of the deposited data

How the results depend on the processing

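Of 70 fold changes between fractions (10 genes in the mean, in 5 lines and in control EPCAM- against day 0), all 990 values under the alternatives were negative; 138 no longer passed and 34 passed newly. Averaged over lines all 10 genes fell under every alternative, and left-out libraries gave 10 to 10. Single lines were less stable. When the fit held just the groups compared, 0 of the 10 fell in the control line, 3 in the Pitx1 line, 0 in the Klf5 line and 0 in the Nfatc1 line. In that fit 0 of all tested genes fell in the control, Klf5 and Nfatc1 lines, and 12 of 16989 in the Pitx1 line. Voom weights gave 3 in the Klf5 line (39 of 19569 tested genes fell), and the block within a line gave 10 in the Creb3l1 line (412 of 19569). With 1 library left out the counts were 3 to 9 (control), 2 to 6 (Pitx1), 0 to 5 (Klf5), 3 to 4 (Nfatc1), 1 to 3 (Creb3l1) and 9 to 10 (control EPCAM- against day 0). The lone library of a group is then assumed to vary like the other groups. Of the knockout comparisons in EPCAM- cells, 2 values were called with the replicate block, 0 with a pseudocount of 10, 0 with only the compared groups, 0 with voom and 0 to 3 with 1 library left out. No knockout comparison in EPCAM+ cells and no interaction was called with a library left out (0 to 0), nor any day 8 against day 0 value. The fold change of Myo5b in Klf5 knockout EPCAM+ cells turned from 0.16 to -0.0626 without replicate 1 of that group (-0.0626 to 0.39 over libraries left out). That of Mal in Pitx1 knockout EPCAM- cells turned from -1.53 to 0.13 without control EPCAM- replicate 1 (-3.18 to 0.13). Neither had passed, and the cause was not tested.

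Over all tested genes the mean over lines called 1218 genes, 1973 with the replicate block and 4450 with the block within a line. The control line called 126, 224 and 1372 in the same fits and 0 with only its groups. The median-ratio scaling was added after seeing the data. The planned TMM scaling and the quasi-likelihood count test were not run: the deposited values are rounded up from whole steps and did not pass the test for whole reads set for a count test. Voom used reads recovered after undoing that rounding. Depth limits Crb3, Prom2 and Atp8b1 most, with 0 to 4 reads in each EPCAM- library.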
